A study of Homo sapiens with 4 samples.

Results

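The BCL2 family of apoptosis regulators was followed by the mRNA of 10 genes, taken by their symbols: the anti-apoptotic BCL2, BCL2L1 and MCL1, the effectors BAX and BAK1, and the BH3-only genes BID, BAD, BCL2L11, BBC3 and PMAIP1. All 10 have a row in the table of 12912 genes, none of these symbols is repeated there, and all 10 were among the 12335 genes with enough counts to be tested. The cells were 786-O, an established clear cell renal carcinoma line without functional VHL. One group of 2 libraries, 786-O-Ctrl (genotype "Wild type(VHL-null)"), was compared with 2 libraries of 786-O-VHL (genotype "VHL restoration"), into which HA-VHL had been brought by a pBabe-puro retrovirus, and the labels name the triple-reporter form (786-OTR), with GFP, luciferase and thymidine kinase, in both groups. Each group is 1 subline, so a difference is one between these sublines, and nothing in the sources says that the libraries of a group came from separate cultures. The p-values then measure the spread between these libraries, which may be technical.

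Proteins of this family decide whether the outer mitochondrial membrane is opened, the committing step of intrinsic apoptosis. BAX and BAK1 form the pore, BCL2, BCL-XL (from BCL2L1) and MCL1 hold them and the BH3-only proteins in check, and the BH3-only proteins carry death signals to both. In the kidney, as elsewhere, VHL is best known for the degradation of HIF-α, and the family is also set by phosphorylation, cleavage and protein turnover, which mRNA does not show.

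Counts summed to between 2807779 and 22141263 per library, and 786-O-VHL replicate 1 was the shallowest. Both 786-O-Ctrl columns carry the same replicate number, so they are told apart by depth, as deeper and shallower. VHL mRNA stood at 42.9 and 43.9 CPM in the control libraries and at 178 and 163 CPM after restoration, so that the libraries match their labels, although the counts do not separate the vector from the endogenous gene. CPM stands for counts scaled by library total and TMM factor. All 9 renal carcinoma markers had counts in every library, although CA9, at 1.19 CPM in 786-O-Ctrl and 0.577 CPM in 786-O-VHL, was near the detection limit. Of these 9, 4 fell and 2 rose, and their summed level was 3829 and 3832 CPM in 786-O-Ctrl against 3045 and 3081 CPM in 786-O-VHL. VIM fell by 1.21 on the log2 scale (edgeR FDR = 3.66e-16), and EPAS1, which encodes HIF-2α, rose by 1.37 (edgeR FDR = 3.22e-17). The 3 markers of other cell types with a row (CD14, PECAM1, COL1A1) summed to between 6.05 and 8.48 CPM. All 10 proliferation markers fell, and their summed level was 2131 and 2125 CPM in 786-O-Ctrl against 1050 and 1129 CPM in 786-O-VHL. The part of these shifts in the changes given here was not tested, and in such bulk RNA fewer cells of a state and less RNA per cell cannot be told apart.

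Among the 10 genes, 7 rose and 2 fell with VHL restored (FDR of edgeR's quasi-likelihood test below 0.05), and only BAX missed that threshold. This is to be read against all 12335 genes, of which 64.5% passed it, 32.6% as higher and 31.9% as lower. The median log2 fold change (786-O-VHL over 786-O-Ctrl) was 0.43 for the 10 genes and 0.02 for all genes, and the median size without sign was 0.61 and 0.43. BBC3, BCL2L11 and BCL2 passed 2-fold at that FDR, 3 of 10 where 17.5% of all genes did. All 10 stayed under the 4-fold threshold of the study, which 4.46% of all genes passed with an FDR under 0.01. In 9 of the 10 genes the CPM of the groups did not overlap, which held for 80.0% of all genes.

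**Figure D1:**
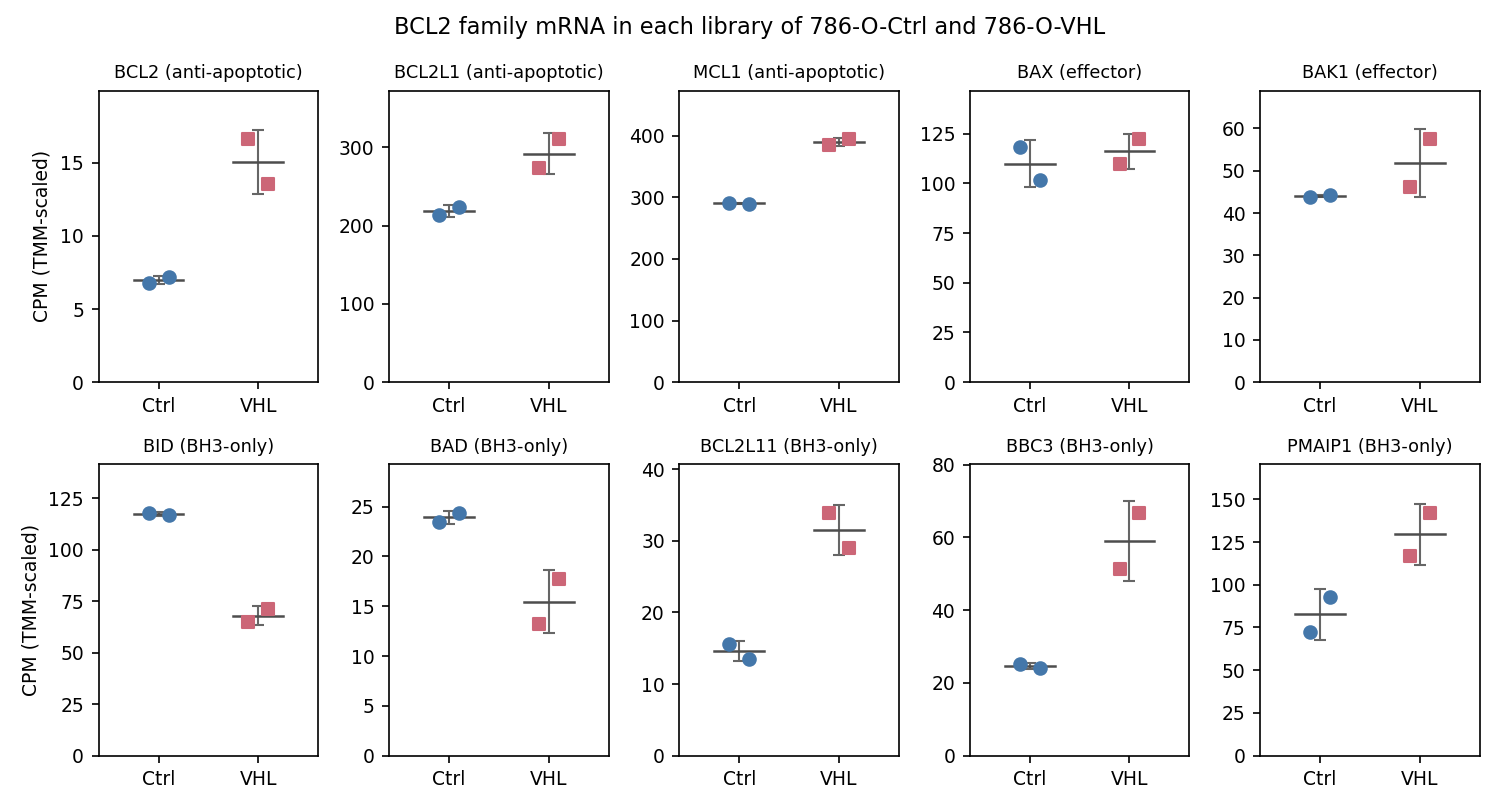
TMM-scaled CPM of each gene in the 2 libraries of 786-O-Ctrl (circles, the deeper at left) and of 786-O-VHL (squares, replicate 1 at left), with the mean and SD as bars (n = 2) and each axis starting at 0. BCL2, BCL2L11 and BBC3 stand clear of the control in both libraries, BID and BAD lie below it, and the BAX libraries overlap.

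All 3 anti-apoptotic genes were higher in 786-O-VHL, BCL2 by 2.05-fold and the far more abundant BCL2L1 and MCL1 by 1.35-fold each. BCL2 (ENSG00000171791.13, GRCh37 chromosome 18, from 60790579 to 60987361 on the minus strand) is the founding member, which restrains BAX and BAK1 and binds BCL2L11. It had 6.79 and 7.18 CPM in the control libraries (the deeper first, here and throughout) and 16.6 and 13.5 CPM in 786-O-VHL replicates 1 and 2. Both 786-O-VHL libraries were above both controls, although replicate 1 rests on 49 counts. The log2 fold change was 1.04 (standard error 0.174, edgeR FDR = 7.86e-06).

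BCL2L1 (ENSG00000171552.13, minus strand of chromosome 20 from 30252255 to 30311792) encodes BCL-XL and, by other splicing, the pro-apoptotic BCL-XS, which counts per gene do not separate. It was at 213 and 225 CPM in 786-O-Ctrl and at 274 and 311 CPM in 786-O-VHL, without overlap of the groups. The log2 fold change of BCL2L1 was 0.44 (standard error 0.0665, edgeR FDR = 1.85e-06). An antisense lncRNA, ABALON, shares 1735 exonic bases with BCL2L1, and whether counting used strand is not given in the sources used here.

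MCL1 (ENSG00000143384.13, minus strand of chromosome 1 from 150533371 to 150552214) encodes a short-lived protein that is bound by NOXA, the product of PMAIP1. Its level was 291 and 289 CPM in 786-O-Ctrl and 386 and 395 CPM in 786-O-VHL. The groups did not overlap, and the SDs were 1.29 and 6.26 CPM (n = 2 each). MCL1 rose by 0.43 on the log2 scale (standard error 0.0609, edgeR FDR = 5.6e-07), and it shares 328 exonic bases with ADAMTSL4-AS1 on its own strand.

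The pore-forming effectors moved least. BAX (ENSG00000087088.20, plus strand of chromosome 19 from 49458072 to 49465055), which moves from the cytosol to mitochondria when activated, had 118 and 102 CPM in 786-O-Ctrl and 110 and 122 CPM in 786-O-VHL. The groups overlapped, and the difference was within the spread between replicates (log2 fold change 0.10, 95% interval -0.05 to 0.26, edgeR FDR = 0.239). Its sign changed without the shallower 786-O-Ctrl library (-0.02) and without 786-O-VHL replicate 2 (-0.015), and scaling by library totals alone gave 0.24 with an edgeR FDR of 0.00617.

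BAK1 (ENSG00000030110.13, minus strand of chromosome 6 from 33540324 to 33548070), the effector that sits in the mitochondrial membrane, was at 43.8 and 44.3 CPM in 786-O-Ctrl and at 46.1 and 57.5 CPM in 786-O-VHL. Both 786-O-VHL libraries were above the controls, replicate 1 by little. Over all 4 libraries the log2 fold change was 0.31 (standard error 0.088, edgeR FDR = 0.00303). That call was lost with DESeq2, at equal depth, without the deeper 786-O-Ctrl library and without 786-O-VHL replicate 2, where the log2 fold change was 0.06 (edgeR FDR = 0.731). Processed pseudogenes of BAK1 are annotated on chromosomes 20 and 11 and have no row in the table, so how reads shared with them were counted is uncertain.

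BH3-only genes went both ways, with BBC3, BCL2L11 and PMAIP1 higher and BID and BAD lower. BBC3 (ENSG00000105327.17, minus strand of chromosome 19 from 47724079 to 47736023) encodes PUMA, a strong activator known as a target of FOXO3. It had 25.26 and 23.99 CPM in 786-O-Ctrl and 51.2 and 66.8 CPM in 786-O-VHL. With both libraries far above the control, it rose 2.53-fold (log2 fold change 1.34, standard error 0.0999, edgeR FDR = 2.33e-12). Over all 4 libraries this was the largest change of the 10, but without 786-O-VHL replicate 2 it was 1.05, below BCL2 at 1.25 and BCL2L11 at 1.21. A correction for GC content and transcript length, chosen after the data were seen, lowered the value over all 4 libraries to 1.09, and the BBC3 transcript has a GC content of 69.7%, the highest of the 10.

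BCL2L11 (ENSG00000153094.23, plus strand of chromosome 2 from 111876955 to 111926021) encodes BIM, which binds all anti-apoptotic members and is induced by FOXO factors when growth signals are withdrawn. Its mRNA was 15.5 and 13.6 CPM in 786-O-Ctrl and 33.9 and 29.0 CPM in 786-O-VHL, a clear separation. The log2 fold change was 1.05 (95% interval 0.79 to 1.30, edgeR FDR = 2.71e-08), which is the size found for BCL2. An lncRNA on the opposite strand, MIR4435-2HG, shares 727 exonic bases with BCL2L11, and reads from either cannot be told apart without strand.

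PMAIP1 (ENSG00000141682.11, plus strand of chromosome 18 from 57567228 to 57571537) encodes NOXA, which binds mainly MCL1 and promotes its degradation. It had 72.1 and 93.0 CPM in 786-O-Ctrl and 117 and 142 CPM in 786-O-VHL. The groups did not overlap, but the control libraries differed more for PMAIP1 than for the other members, with an SD of 14.8 CPM (n = 2) around a mean of 82.6. Its rise of 0.71 on the log2 scale (95% interval 0.53 to 0.89, edgeR FDR = 8.08e-08) ranged from 0.50 without the deeper 786-O-Ctrl library to 0.87 without the shallower.

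BID (ENSG00000015475.18, minus strand of chromosome 22 from 18216904 to 18257536), which caspase-8 cleaves to link death receptors to mitochondria, was at 118 and 117 CPM in 786-O-Ctrl and at 64.8 and 71.3 CPM in 786-O-VHL. It fell 1.69-fold, with both 786-O-VHL libraries well below the control (log2 fold change -0.76, standard error 0.0709, edgeR FDR = 2.75e-10).

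BAD (ENSG00000002330.13, minus strand of chromosome 11 from 64037302 to 64052176), which survival kinases hold inactive by phosphorylation, was at 23.5 and 24.4 CPM in 786-O-Ctrl and at 13.2 and 17.7 CPM in 786-O-VHL. Both libraries with restored VHL were below the control, though replicate 1 gave only 39 counts. The log2 fold change was -0.51 (standard error 0.129, edgeR FDR = 0.001), and it was -0.86 without 786-O-VHL replicate 2. GPR137, on the opposite strand across 404 exonic bases of BAD, had a log2 fold change of -0.16 and was not called.

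**Figure D2:**
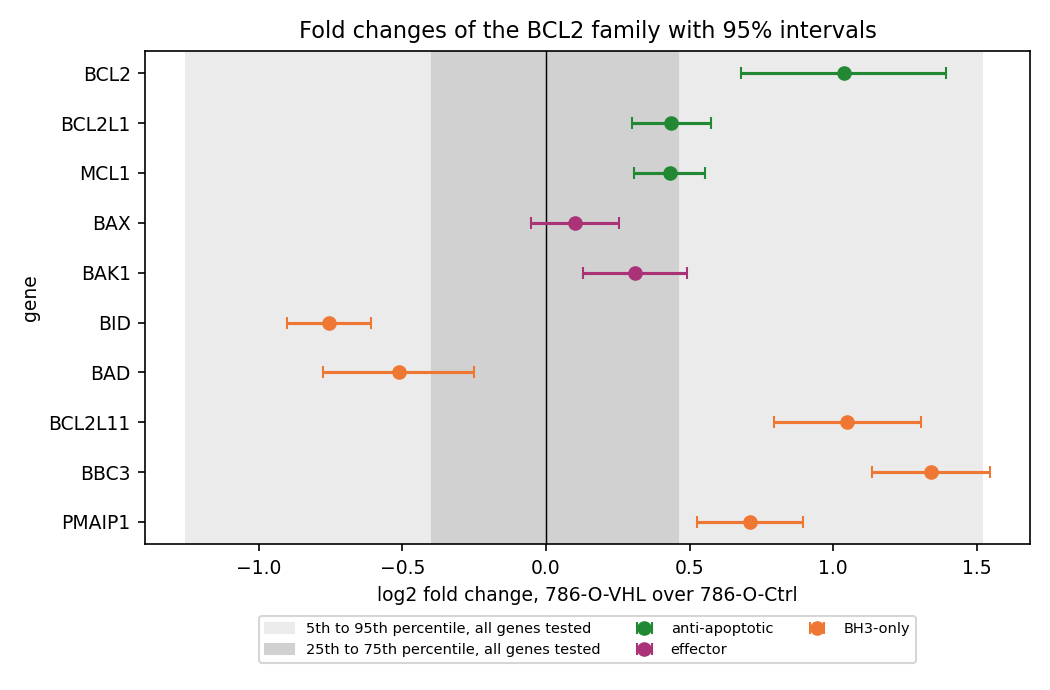
Log2 fold change of each gene with its 95% interval from the edgeR test (points and bars, colored by role), over bands that hold the middle of all 12335 genes. BBC3, BCL2L11 and BCL2 lie above 1, BID and BAD below 0, and the interval of BAX crosses 0. No point leaves the band from the 5th to the 95th percentile (-1.255 to 1.516), although the interval of BBC3 reaches 1.544.

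Levels of different genes were compared per kilobase of the canonical transcript (CPM per kb). In 786-O-Ctrl, BAX stood highest at a mean of 138 CPM per kb, followed by BCL2L1 at 85.0 and MCL1 at 73.4. BID was at 53.9, PMAIP1 at 43.5, BAD at 25.8, BAK1 at 20.3 and BBC3 at 13.3 CPM per kb. The lowest levels were those of BCL2L11 at 2.85 and of BCL2 at 1.015 CPM per kb. Among the 3 anti-apoptotic members, BCL2 was thus the least abundant by a wide margin. In 786-O-VHL, on the same scale, the first 3 and the last 2 kept their places. Between them, PMAIP1 (68.25 CPM per kb) stood above BID (31.25), BBC3 (32.0) above BAK1 and BAD, and BAK1 (23.9) above BAD (16.6). The libraries of BBC3, at 27.8 and 36.2 CPM per kb, overlapped those of BID, at 29.8 and 32.7 CPM per kb. Most of these places depend on the length used. The canonical transcript of BAX has 795 bases and its merged exons 2587, and per kilobase of merged exons BAX (42.5 CPM per kb in 786-O-Ctrl) lay below BCL2L1 (52.2) and MCL1 (46.6). On that scale PMAIP1 (37.8) already stood above BID (26.6), and BAK1 (19.9) above BAD (14), in 786-O-Ctrl. In 786-O-VHL, per kilobase of merged exons, PMAIP1 (59.3) stood above BAX (44.9) and BBC3 (18.5) below BAK1 (23.4). On both scales BCL2L11 and BCL2 came last in both groups, and BBC3 lay below BAD in 786-O-Ctrl and above it in 786-O-VHL.

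Ratios of counts between a pro-apoptotic and an anti-apoptotic member within a library do not depend on the scaling between libraries. They were taken for 10 pairs and are given without a test, since with 2 libraries against 2 the smallest p of a two-sided exact permutation test is 0.333. The intervals are exact binomial and cover counting error only. BBC3 counts per MCL1 count went from 0.0868 and 0.0830 to 0.133 and 0.169 with VHL restored, a rise of 1.77-fold without overlap. The BCL2L11 to BCL2L1 ratio behaved alike, at 0.0728 and 0.0604 in 786-O-Ctrl against 0.124 and 0.0935 in 786-O-VHL.

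BCL2L11 to MCL1 rose 1.61-fold, from 0.0534 and 0.0469 to 0.0880 and 0.0736. The groups overlapped in 2 pairs. For BCL2L11 to BCL2, which rose by a like factor, the ratio was 2.29 and 1.89 in 786-O-Ctrl against 2.04 and 2.15 in 786-O-VHL, with overlap. PMAIP1 to MCL1 also overlapped, at 0.248 and 0.322 against 0.303 and 0.360. BAD to BCL2L1 was 0.110 and 0.109 in 786-O-Ctrl against 0.0483 and 0.0570 in 786-O-VHL, a fall of 2.08-fold. BAX to BCL2 went from 17.4 and 14.2 to 6.61 and 9.03, again without overlap. The other 3 pairs, BAX to BCL2L1, BAK1 to MCL1 and BAK1 to BCL2L1, were lower by 1.26, 1.15 and 1.14 times. Their ratios did not overlap between groups, but in each pair the counting intervals of the nearest libraries did. For BAK1 to MCL1 these were 0.140 to 0.161 in the deeper 786-O-Ctrl library and 0.136 to 0.156 in 786-O-VHL replicate 2. By the ratios without their intervals, of the 10 pairs 3 were higher, 5 lower and 2 overlapping. For the CPM of single genes, a different measure, 80.0% had groups without overlap. On the log2 scale BAK1 to MCL1 moved from -0.20 to -0.06 without 786-O-VHL replicate 1 and to -0.34 without replicate 2, BAK1 to BCL2L1 from -0.19 to -0.12 without replicate 1, and BAX to BCL2L1 from -0.335 to -0.188 without the deeper 786-O-Ctrl library.

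**Figure D3:**
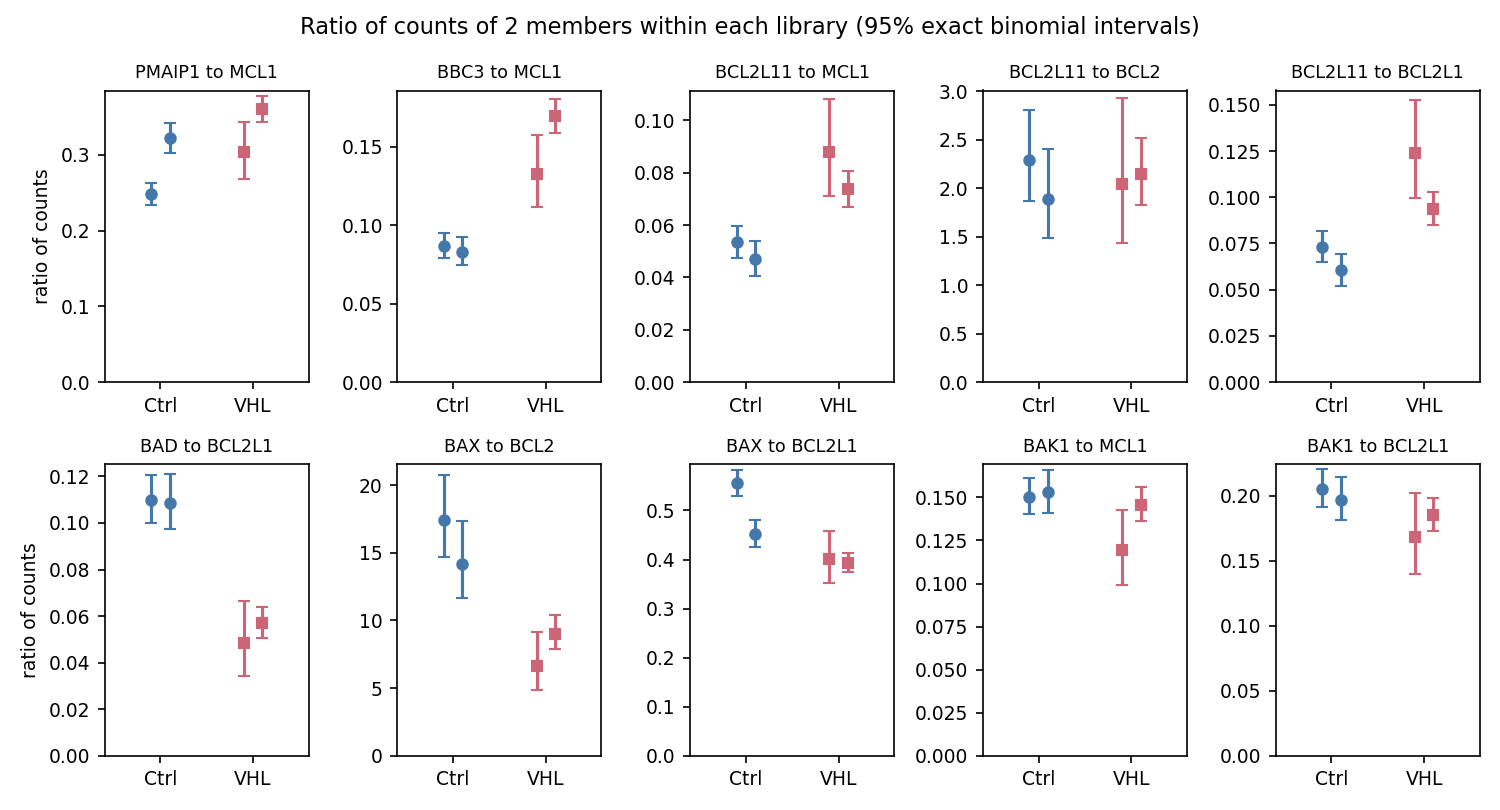
Ratio of the counts of 2 members in each library of 786-O-Ctrl (circles) and 786-O-VHL (squares), with 95% exact binomial intervals and axes from 0. BBC3 rose against MCL1, and BCL2L11 against both MCL1 and BCL2L1. BAD to BCL2L1 and BAX to BCL2 fell, and BCL2L11 to BCL2 and PMAIP1 to MCL1 overlapped between groups.

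Promoter sequence bears on genes that moved together, and the 250 bases before the RefSeq start (GRCh38.p14) were searched on both strands for 8 motifs of factors named among the inducers of BH3-only genes and of HIF. The RefSeq table held 15 starts for 9 of the 10 members, and MCL1 had no entry. The motifs were the E-box CACGTG that MYC binds, the hypoxia response element cores ACGTG and GCGTG (an E-box always holds ACGTG on both strands), the FOXO site GTAAACA, the E2F sites TTTCGCGC and TTTGGCGC, the C/EBP-ATF element TGATGNAA and the interferon-stimulated response element. The 3 BH3-only genes that rose are shown, with BAX as the member that was not called, and capitals mark motif matches.
BBC3 (minus strand, chr19:47232668-47232917): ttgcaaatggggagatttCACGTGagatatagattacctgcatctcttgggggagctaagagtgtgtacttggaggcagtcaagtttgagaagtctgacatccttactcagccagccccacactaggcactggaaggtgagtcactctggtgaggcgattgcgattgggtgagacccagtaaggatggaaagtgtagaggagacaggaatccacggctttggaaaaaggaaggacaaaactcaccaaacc
BCL2L11 (plus strand, chr2:111120664-111120913): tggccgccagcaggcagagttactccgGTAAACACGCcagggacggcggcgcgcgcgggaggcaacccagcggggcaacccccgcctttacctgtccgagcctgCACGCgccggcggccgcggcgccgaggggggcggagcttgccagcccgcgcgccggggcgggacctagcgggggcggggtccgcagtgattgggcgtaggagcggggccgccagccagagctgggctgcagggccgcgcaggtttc
PMAIP1 (plus strand, chr18:59899746-59899995): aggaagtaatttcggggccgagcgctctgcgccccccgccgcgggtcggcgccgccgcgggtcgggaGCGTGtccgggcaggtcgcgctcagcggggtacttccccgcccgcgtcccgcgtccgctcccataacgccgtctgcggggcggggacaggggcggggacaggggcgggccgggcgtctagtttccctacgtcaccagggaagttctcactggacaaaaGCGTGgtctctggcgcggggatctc
BAX (plus strand, chr19:48954625-48954874): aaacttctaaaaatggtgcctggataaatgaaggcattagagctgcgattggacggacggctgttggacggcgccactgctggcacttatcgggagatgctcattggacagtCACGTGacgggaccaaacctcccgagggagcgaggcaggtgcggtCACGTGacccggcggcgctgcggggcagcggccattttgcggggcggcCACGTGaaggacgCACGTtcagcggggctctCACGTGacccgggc
BBC3 held 1 E-box. BAX held 4, and 1 further ACGTG core. Windows of 6.34% of all 35116 starts hold an E-box. BCL2L11 held 1 FOXO site, as do 2.98% of all windows, which overlaps a GCGTG core, and a second such core. PMAIP1 held 2 GCGTG cores, found in 32.2% of all windows. BCL2 and BAK1 held none of the 8 motifs, and BCL2L1, BID and BAD held GCGTG cores or, for BID, E-boxes in some of their windows. No member window held an E2F, C/EBP-ATF or interferon-stimulated response element. A match is a description of the sequence and not of binding.

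Transcription factors known to induce BH3-only genes were followed as a list of 12, of which 11 could be tested. In that list 7 were higher and 3 lower at an edgeR FDR under 0.05 (32.6% and 31.9% of all genes were), and the median log2 fold change was 0.42. The largest rises were those of DDIT3 (CHOP, of the stress response) at 2.40 (edgeR FDR = 1.67e-19), IRF1 (of the interferon response) at 1.98 (edgeR FDR = 4e-19) and MYC at 1.41 (edgeR FDR = 1.77e-16). E2F1, which also drives the cell cycle, fell by 2.59 on the log2 scale (edgeR FDR = 9.6e-20), and IRF3 fell by 0.31 (edgeR FDR = 0.00079). TP73 had 68 and 60 counts in 786-O-Ctrl against 0 and 12 in 786-O-VHL (log2 fold change -2.56, edgeR FDR = 1.46e-05). It passed the count filter through 786-O-Ctrl, and with at least 10 counts in every library 2 inducers were lower. The study ran gene set enrichment with hallmark sets on these libraries and reported the apoptosis set as enriched in 786-O-VHL. DDIT3 and IRF1 are among the genes it lists under that set, and E2F1 under the G2M set. They are therefore not independent evidence. FOXO1, FOXO3 and FOXO4 rose by 0.42, 0.27 and 1.06 (edgeR FDR = 0.0478, 0.00202 and 2.28e-06). The number of inducers higher ranged from 6 to 8 over the alternatives, and FOXO1, whose 786-O-VHL replicate 1 (7.80 CPM) was barely above the controls (7.50 and 7.64 CPM), is the call nearest the threshold.

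Of 16 further BCL2 family genes, 14 could be tested, and 5 were higher and 4 lower, with a median of 0.025. That share is close to the 64.5% called among all genes. BMF, a BH3-only gene linked to loss of anchorage, rose from 12.1 and 10.6 CPM to 29.9 and 29.6 CPM (log2 fold change 1.38, standard error 0.127, edgeR FDR = 2.09e-10). BIK, another BH3-only gene, was low at 1.235 and 1.13 CPM in 786-O-Ctrl and rose to 4.07 and 3.15 CPM (log2 fold change 1.485, edgeR FDR = 0.000614). The study lists BMF and BIK too under the apoptosis hallmark set for these libraries. HRK, in the study's own list of changed genes, had 0 and 1 count in 786-O-Ctrl against 4 and 17 in 786-O-VHL, a ratio of rates of 38.3 with a 95% counting interval of 6.16 to 1585.

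Anti-apoptotic BCL2A1, known as an NF-κB target, went the opposite way from BCL2, BCL2L1 and MCL1. It had 21 and 29 counts in 786-O-Ctrl against 0 and 1 in 786-O-VHL, so that its rate was 27.4 times higher in 786-O-Ctrl (95% counting interval 4.70 to 1104). BCL2L12, an atypical member, fell from 43.1 and 42.3 CPM to 17.6 and 23.0 CPM (log2 fold change -0.96, edgeR FDR = 8.97e-09). BNIP1, which acts at the endoplasmic reticulum, fell by 0.58 on the log2 scale (edgeR FDR = 0.00977). BOK, a BAX-like effector, and BCL2L2, an anti-apoptotic member, had log2 fold changes of 0.03 and 0.02 (edgeR FDR = 0.74 and 0.859).

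Downstream of the pore, 7 of 12 genes of the apoptosome and of released factors were lower and 1 was higher, with a median of -0.32, where 31.9% of all genes were lower. The number lower was 4 at equal depth and 4 without the deeper 786-O-Ctrl library, and the higher call was lost with DESeq2, at equal depth and without the shallower 786-O-Ctrl library. HTRA2, a protease released with cytochrome c, fell by 0.77 on the log2 scale (edgeR FDR = 2.6e-10), and DIABLO by 1.25 from a low level (edgeR FDR = 0.00584). CYCS, cytochrome c itself, had a log2 fold change of -0.07 (edgeR FDR = 0.328).

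Among 5 tested inhibitors of apoptosis, which block caspases, XIAP and BIRC2 rose by 0.39 and 0.27 (edgeR FDR = 2.59e-05 and 0.000803), and BIRC5 (survivin), which peaks in mitosis, fell by 0.91 on the log2 scale (edgeR FDR = 1.22e-12) beside the proliferation markers. Of the 5, 2 were higher and 1 lower, where 64.5% of all genes were called in either direction. The number of inhibitors higher was 1 in place of 2 at equal depth and without the deeper 786-O-Ctrl library. Of 12 membrane and binding partners, 6 were lower and 2 higher, with a median of -0.43, where 64.5% of all genes were called in either direction. All 3 voltage-dependent anion channels of the outer membrane fell, VDAC1 by 1.13, VDAC2 by 0.61 and VDAC3 by 0.61 on the log2 scale (edgeR FDR = 3.76e-15, 2.7e-09 and 2.87e-07). The study lists VDAC1 and VDAC3 under a Myc target hallmark set for these libraries. DYNLL1 and DYNLL2, dynein light chains that bind BCL2L11 and BMF, rose by 0.38 and 0.31 (edgeR FDR = 1.72e-05 and 0.000152). YWHAH, a 14-3-3 gene of the group that holds phosphorylated BAD, fell by 0.77 on the log2 scale (edgeR FDR = 6.4e-11). Of the other 14-3-3 genes in this list, YWHAB and YWHAQ were also lower, and YWHAE, YWHAG, YWHAZ and SFN were not called. YWHAE (means of 0.874 CPM in 786-O-Ctrl and 0.488 CPM in 786-O-VHL) and SFN (1.19 and 1.98 CPM) were too low to be judged well.

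**Figure D4:**
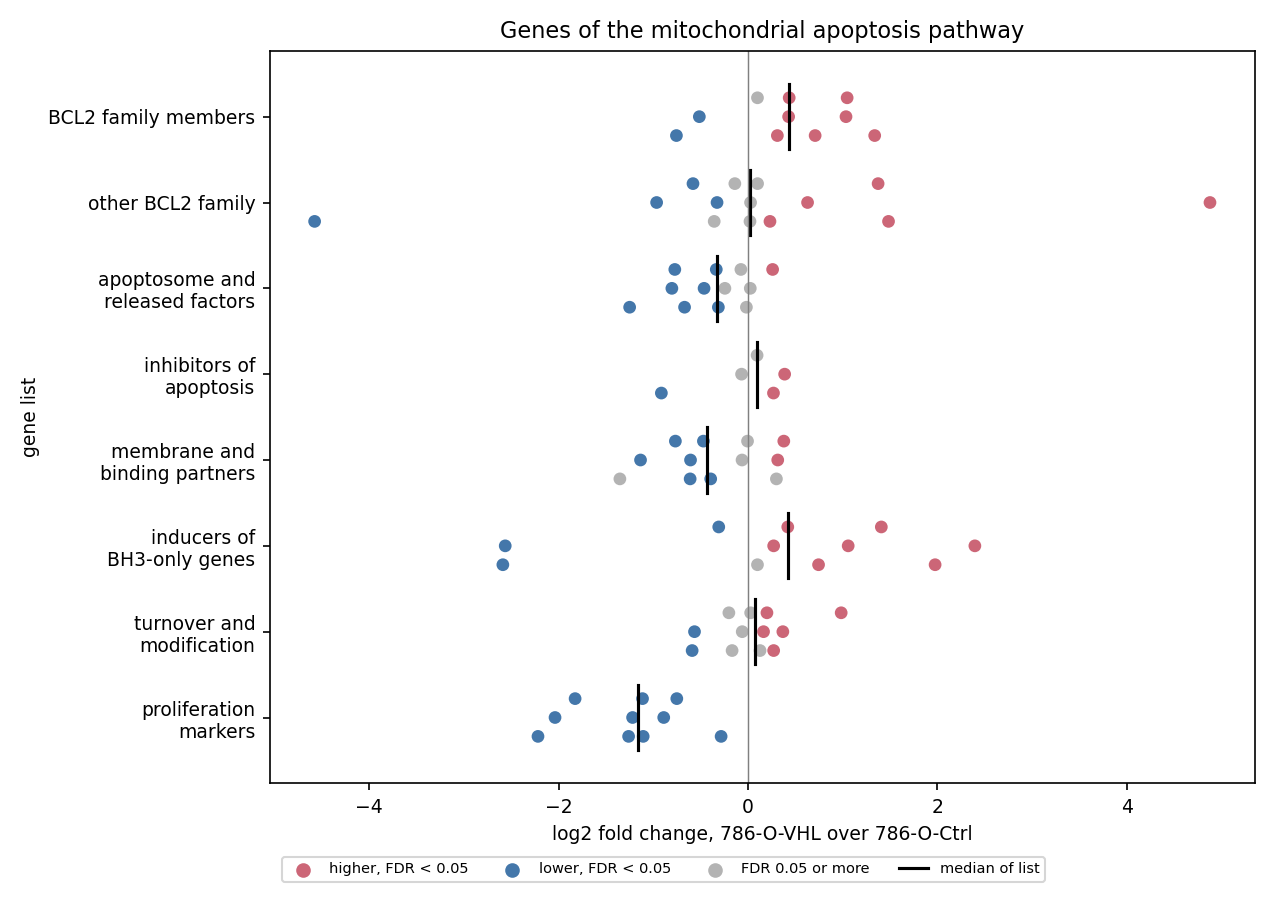
Log2 fold change of every tested gene in each of 8 lists (points), with the median of the list as a vertical bar and colors for higher, lower and not called at an edgeR FDR of 0.05. The 10 family members and the inducers have medians above 0.4, the apoptosome and partner lists lie below -0.3, and all 10 proliferation markers fell. The fitted values of HRK (4.88) and BCL2A1 (-4.58) rest on 1 count in a group.

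**Figure D5:**
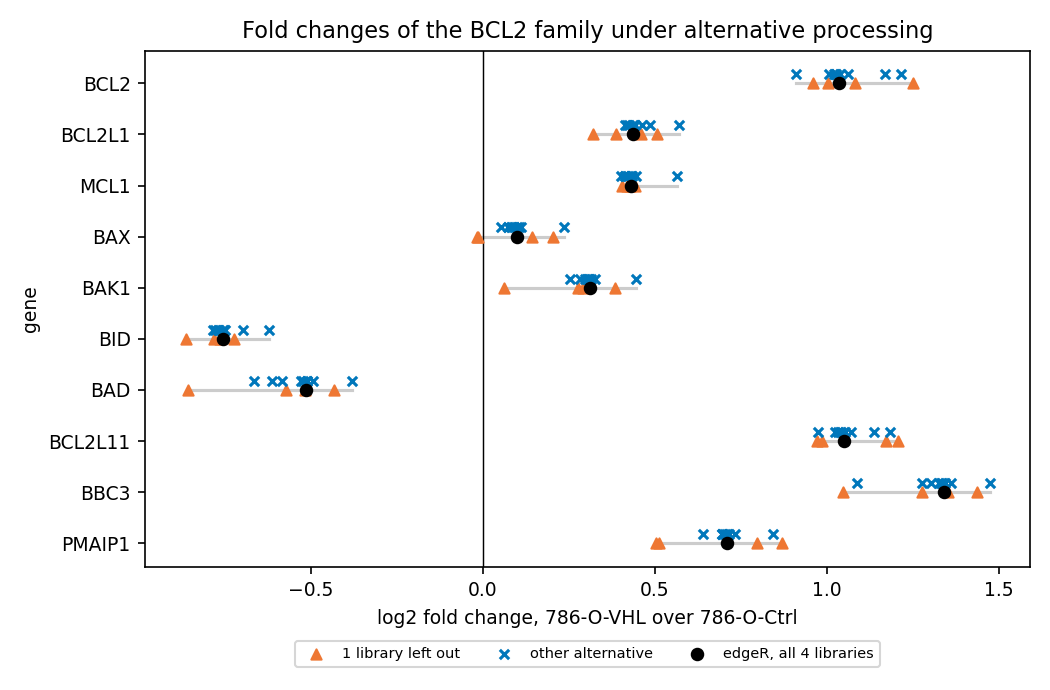
Log2 fold change of each gene over all 4 libraries (black), with 1 library left out (triangles) and under 9 other ways of processing (crosses). BAX spans 0, BAK1 comes close to it at 0.06, and the other 8 genes keep their side in all 13 alternatives.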

How the data were processed

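The submitters' processing notes name CASAVA, STAR and hg19, and the authors deposited raw counts per gene for 4 libraries without normalization. How reads were assigned to genes, with which annotation and with or without strand, is not given in the sources used here. DESeq2 was the test of the paper. Here edgeR 4.0.16 in R 4.3.3 was the main test: filterByExpr at a minimum count of 10 kept 12335 of 12912 genes, counts were TMM-scaled, the group was the only term, and the quasi-likelihood p was adjusted by Benjamini-Hochberg over all genes tested. Standard errors are those implied by the F statistic. Repeated symbols were handled by the identifier with most counts. Coordinates, lengths and overlaps are from the GENCODE annotation lifted to GRCh37, which is the build of the files but may be another release than the authors used. Counts of the control replicates gave a chi-square per degree of freedom of 2.22, those of 786-O-VHL 2.72, so neither pair is 1 library deposited again. A count of 0 allows 3 counts, or 1.02 CPM in 786-O-VHL replicate 1 and at most 0.199 CPM elsewhere.

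The members, lists and pairs were chosen with earlier results of these data known. All members are named, and of each other list at most 3 genes per direction past FDR < 0.05 without overlap of the groups, by fold. The FOXO genes, VDAC2, BOK, BCL2L2 and CYCS were added after their values were seen. Some genes that the rule names are not reported here. The test was tested on simulated data for this comparison, where 96 of 100 genes changed 2-fold and 98 of 98 changed 8-fold were recovered over 12153 genes, with 6 false calls. The simulation gave all genes the same dispersion and changed only 198 of them, where 64.5% of all genes were called in the data. It checks the code and does not measure the rate of false calls in these libraries. Alternatives were DESeq2 1.42.0, limma-voom (limma 3.58.1), RLE factors, library totals alone, no filter, at least 10 counts in every library, thinning to the shallowest library, a prior count of 2, each library left out, and a GC and length correction added after the data were seen.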

Additional observations from a re-analysis of the deposited data

How the results depend on the processing

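Over 13 alternatives, BCL2, BCL2L1, MCL1, BCL2L11, BBC3, PMAIP1, BID, BAD and VHL kept their direction and an FDR under 0.05 in each. BAK1 was not called with DESeq2 (0.254, adjusted p = 0.145), at equal depth (0.284, edgeR FDR = 0.0896), without the deeper 786-O-Ctrl library (0.276) or without 786-O-VHL replicate 2, and ranged from 0.063 to 0.385 with 1 library left out. BAX ranged from -0.016 to 0.204 with 1 library left out, at -0.016 and -0.015 where its sign turned, and was called with library totals alone (0.235), a scaling that moves the median of all genes to 0.15 and the share of higher genes among those called from 50.5% to 62.1%. With 1 library left out, the lone library of that group is assumed to vary like the others. Between 6 and 8 members were higher and 2 lower. DESeq2 called 2861 genes higher and 3147 lower. In the other lists, the number higher fell to 0 for the apoptosome and to 3 for turnover genes with DESeq2. At equal depth these were 0 and 3, with 1 inhibitor of apoptosis higher, 2 other family genes lower and 4 apoptosome genes lower. The GC and length correction gave 2 turnover genes higher and 2 inhibitors of apoptosis lower. With 1 library left out, between 0 and 1 apoptosome genes (0 without the shallower 786-O-Ctrl library), 1 and 3 inhibitors (1 without the deeper) and 2 and 5 turnover genes (3 without the deeper, 2 without the shallower or without 786-O-VHL replicate 2) were higher, and between 4 (without the deeper) and 8 apoptosome genes were lower. The cause was not tested. No paired analysis was possible because both 786-O-Ctrl columns carry the same replicate number. The depth of 786-O-VHL replicate 1 left 49 counts of BCL2 and 39 of BAD there.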

Other observations

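Among 12 genes that set the stability or phosphorylation of family proteins, 5 were higher and 2 lower, where 64.5% of all genes were called in either direction, and the number higher fell to between 2 and 3 under several alternatives. PIM1, a kinase that phosphorylates BAD, rose by 0.985 (edgeR FDR = 7.02e-12), and ITCH and HUWE1, ubiquitin ligases of which the latter acts on MCL1, rose by 0.37 and 0.27 (edgeR FDR = 1.08e-05 and 0.000921). AKT1, another kinase of BAD, fell by 0.59 on the log2 scale (edgeR FDR = 5.23e-09), and the phosphatase subunit PPP1CA fell by 0.56 (edgeR FDR = 1.29e-08). Of 17 tested p53 targets, 9 were higher and 1 lower (32.6% and 31.9% of all genes were), with a median of 0.187. The number higher was 6 with DESeq2 and 12 with library totals alone. GADD45A, TIGAR and TP53INP1 rose by 1.62, 1.59 and 0.72 (edgeR FDR = 5.54e-17, 3.45e-08 and 3.9e-05). DDB2 fell by 0.44 on the log2 scale (edgeR FDR = 0.000754).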
